A study of Mus musculus with 6 samples.

Results

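The genes described here are 28 genes of cholesterol synthesis, its control by sterols, sterol transport between compartments and sterol esterification, measured in mouse liver. They were taken by symbol from a deposited table of 30029 genes, in which all 28 had a row, and all 28 were among the 17606 genes tested. RNA came from liver in 6 libraries, 3 titled as wild type and 3 as knockout of ATP7B. Every sample of both groups is labelled with the same treatment, 24 weeks of high-fat diet, and no other diet enters the comparison. ATP7B is the copper-exporting ATPase of hepatocytes, and the labels do not give the allele, strain, sex or age of the animals, nor say whether each library is a separate animal, so p-values measure the spread between these libraries, which may be technical.

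Liver makes cholesterol from acetyl-CoA through mevalonate, isoprenoid diphosphates, squalene and lanosterol. The enzymes of this route are transcribed under the factor SREBP2, the product of Srebf2, which Scap escorts from the endoplasmic reticulum to the Golgi when membrane sterol is low. Insig1 holds the complex back when sterol is high and is itself a target of the factor, so its transcript and those of the enzymes are known to move together. Sterol that enters in lipoproteins leaves lysosomes through Npc2 and Npc1, and excess is stored as esters made by Soat1 or Soat2.

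Total counts ran from 57886524 to 70965999 in each library, and the lowest count of any of the 28 genes in any library was 73. Wild-type replicates 1, 2 and 3 held 909, 1192 and 2051 counts of Atp7b itself, and knockout replicates 1, 2 and 3 held 1987, 1908 and 2087, so the count of the whole gene did not separate the labels, and directions below follow the labels. All 12 hepatocyte markers were present in each library, with a summed level of 53532 to 64412 CPM (counts per 1e+06 reads of the library, after TMM scaling, which aligns the bulk of genes between libraries) in the wild-type group and 57797 to 73350 CPM in the knockout group. Alb was the largest part of this sum, at 28646.6 to 34976.5 CPM in the wild-type and 38048.1 to 45397.5 CPM in the knockout libraries. The median log2 fold change of the 12 markers, knockout over wild type, was -0.25. In the knockout group, 10 of 10 markers of recruited macrophages lay above the wild-type range, as did 8 of 10 of stellate cells and fibroblasts, beside 13.7% of all genes.

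None of the 28 genes was called between the groups. Calls are an adjusted p under 0.05 in edgeR's quasi-likelihood test, adjusted over all tested genes, and 1.44% of all genes passed. At an unadjusted p under 0.05 there were 5 of the 28 (Hmgcs1, Ebp, Scap, Npc2 and Soat1), beside 19.7% of all genes, and at an adjusted p under 0.1 there were 2 (Soat1 and Ebp), beside 6.64%. The libraries of the groups did not overlap for 4 genes on the higher side in the knockout group (Hmgcs1, Ggps1, Npc2 and Soat1), where 13.7% of all genes did so, and for 3 on the lower side (Hsd17b7, Ebp and Scap), where 12.0% did. DESeq2 called 2 of the 28, Soat1 and Ebp, beside 10.6% of all genes. Log2 fold changes, labelled knockout over labelled wild type, were negative for 18 and positive for 10 of the 28, with 52.0% of all genes negative. Their median was -0.20, and that of all tested genes was -0.02. For 17 of the 28 the 95% interval of the fold change lay wholly within 2-fold in either direction, and for the other 11 it reached beyond.

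**Figure D1:**
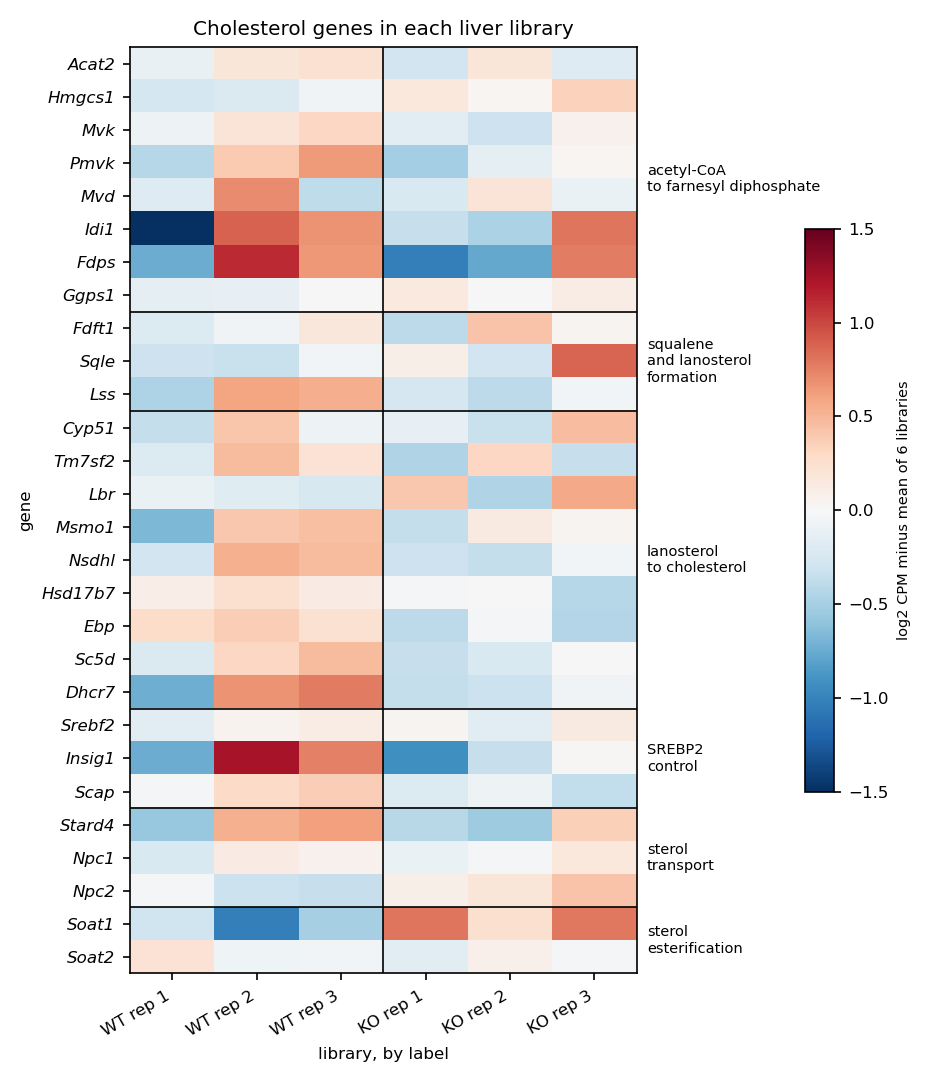
Colour gives the log2 CPM of each gene (rows, grouped by step of the pathway) in each library (columns) minus its mean over the 6 libraries, with values past 1.5 drawn in the end colour. Insig1, Idi1, Fdps and Dhcr7 are blue in wild-type replicate 1 and red in wild-type replicates 2 and 3, while Soat1 separates the labelled groups.

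**Figure D2:**
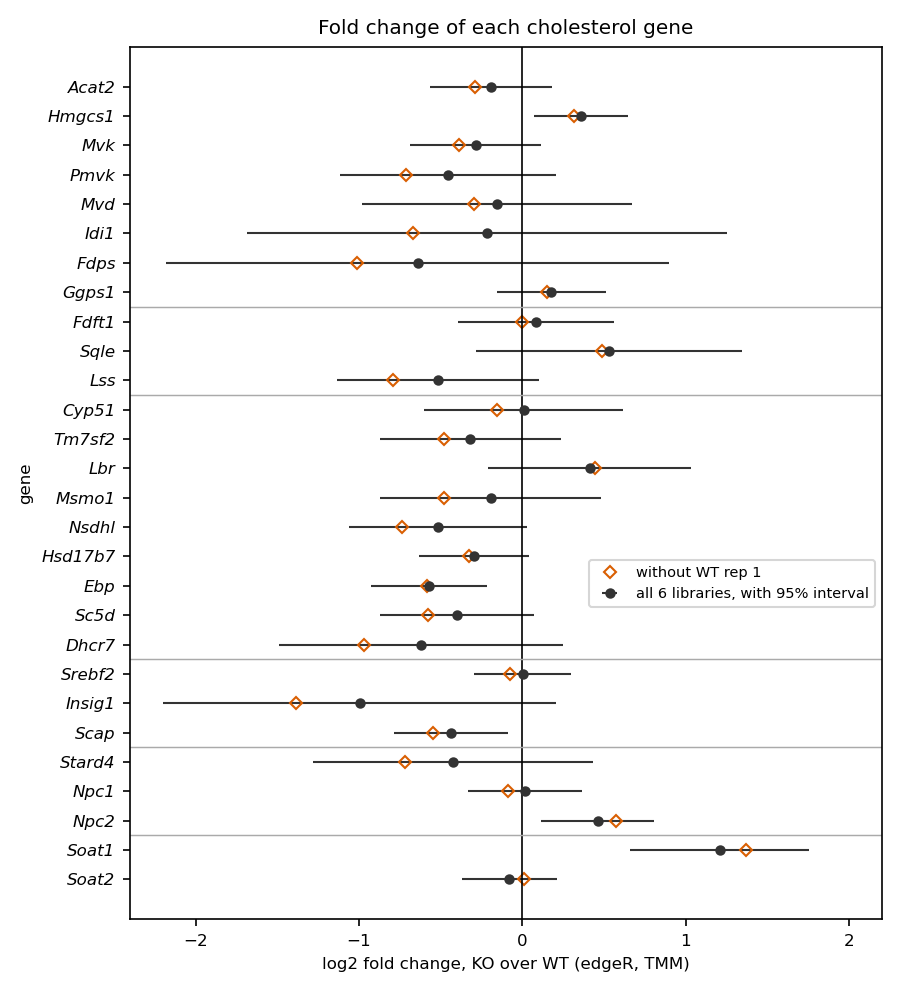
Filled circles are the log2 fold change of each gene, labelled knockout over labelled wild type, with its 95% interval from all 6 libraries, and open diamonds are the value without wild-type replicate 1. Intervals are widest for Fdps, Idi1 and Insig1, and Soat1 at 1.21 lies farthest to the right.

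Sterol esterification held the gene nearest to the threshold. Soat1, the acyltransferase that esterifies cholesterol in macrophages and many other cells (GRCm39 chromosome 1, 156252095 to 156301901, minus strand), had 7.80, 4.71 and 6.76 CPM in the wild-type libraries and 16.7, 11.3 and 16.5 CPM in the knockout libraries. The lowest knockout library was above the highest wild-type one. The log2 fold change was 1.21 ± 0.24 (SE; 2.31-fold; 95% interval 0.66 to 1.75), with an adjusted p of 0.0511 in edgeR's quasi-likelihood test. Soat1 passed the edgeR test without wild-type replicate 1 (adjusted p = 0.0483) and without knockout replicate 2 (adjusted p = 0.0256), and not without any of the other 4 libraries (adjusted p = 0.108 to 0.184). Those 2 were its highest wild-type and its lowest knockout library, so leaving either out widens the difference by construction. Soat1 also passed with DESeq2 (adjusted p = 2.76e-04), without a filter on low counts (edgeR adjusted p = 0.0333) and with scaling by total counts (edgeR adjusted p = 0.0341). Total-count scaling also raised the median log2 fold change of all genes, from -0.02 to 0.31.

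Soat2, the acyltransferase of hepatocytes and enterocytes, had 50.2, 41.5 and 42.1 CPM in the wild-type libraries and 38.5, 45.6 and 42.5 CPM in the knockout libraries. The ranges overlapped, and the log2 fold change was -0.08 with an interval of -0.37 to 0.21. Per kilobase of the longest annotated transcript, Soat2 was 24.4, 33.4 and 23.6 times the level of Soat1 in the wild-type libraries and 8.76, 15.3 and 9.77 times in the knockout libraries. Soat2 was the more abundant in each of the 6 libraries, and all 3 knockout ratios lay below the wild-type range.

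The 10 recruited macrophage markers stood beside Soat1 with a summed level of 129 to 257 CPM in the wild-type libraries and 481 to 917 CPM in the knockout libraries. Of these markers 1, Cd68, was called, beside 1.44% of all genes, and its log2 fold change was 1.55 ± 0.21 (edgeR's quasi-likelihood test, adjusted p = 0.039). None of the 10 was at 0 in any library. Markers of stellate cells and fibroblasts summed to 234 to 251 CPM in the wild-type and 511 to 969 CPM in the knockout libraries, with 2 of 10 called, beside the same 1.44%. Bile duct cell markers summed to 80.9 to 109 CPM in the wild-type and 79.7 to 637 CPM in the knockout libraries, with 0 called. Kupffer cell markers summed to 440 to 782 CPM against 453 to 665 CPM, with 0 of 10 called and a median log2 fold change of -0.38. Without overlap, 2 of these 10 were higher in the knockout libraries (Adgre1 and C1qa), beside 13.7% of all genes, and 3 lower (Clec4f, Marco and Cd163), beside 12.0%. The markers' part in the Soat1 values was not tested, and in bulk liver fewer cells of a type cannot be told apart from less RNA per cell.

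Among the sterol transporters, Npc2, the soluble lysosomal protein that hands cholesterol to Npc1, had 84.4, 68.0 and 67.1 CPM in the wild-type libraries and 90.7, 96.9 and 114 CPM in the knockout libraries. These ranges did not overlap, but the difference did not pass edgeR's quasi-likelihood test (log2 fold change 0.46 ± 0.15, adjusted p = 0.145). With total-count scaling it did, with a log2 fold change of 0.80 (edgeR adjusted p = 0.0441). That scaling also raised the median log2 fold change of all genes, from -0.02 to 0.31. Npc2 is abundant in macrophages as well as hepatocytes, and the same marker levels stand beside it. Npc1, the membrane protein of the lysosome, had a log2 fold change of 0.02 with an interval of -0.33 to 0.36. Stard4, a soluble sterol carrier and SREBP2 target, had 21.1, 45.0 and 47.8 CPM against 23.4, 21.5 and 39.9 CPM, with overlapping groups.

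**Figure D3:**
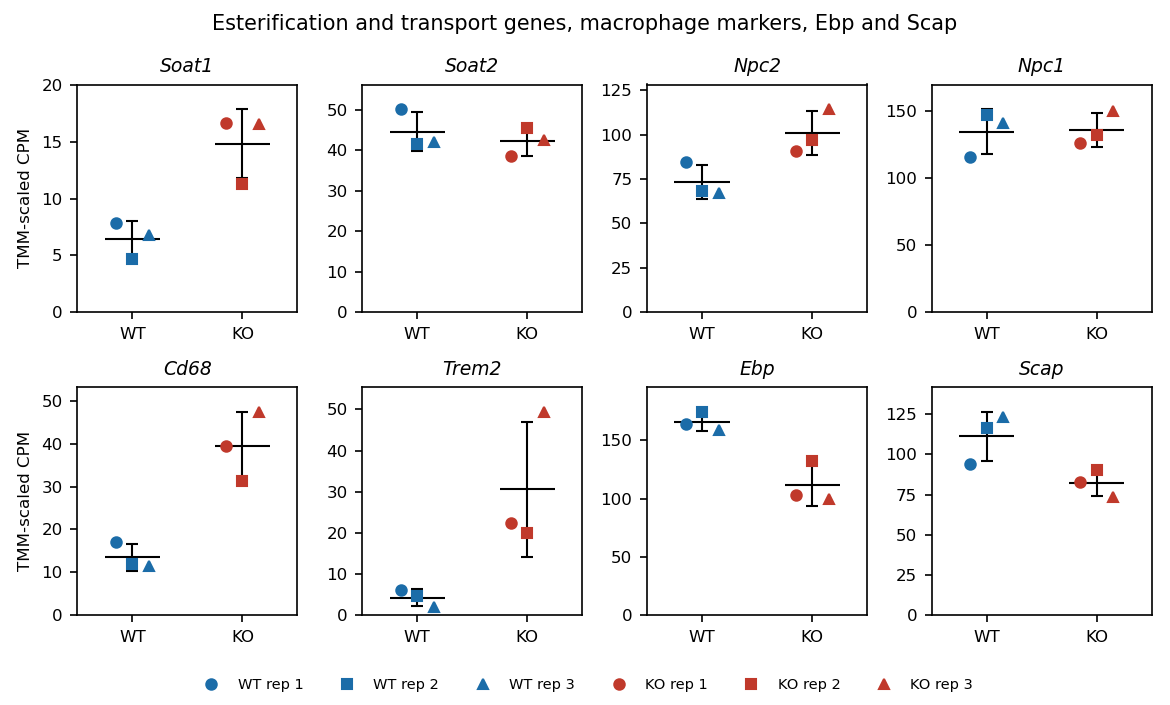
Points are the TMM-scaled CPM of each library (circle, replicate 1; square, replicate 2; triangle, replicate 3), and bars are the mean and SD of the 3 libraries of a group. Soat1, Npc2, Cd68 and Trem2 lie higher in the 3 knockout libraries and Ebp and Scap lie lower, while Soat2 and Npc1 overlap.

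The enzymes from acetyl-CoA to farnesyl diphosphate numbered 8 with Ggps1, which branches off to geranylgeranyl diphosphate, and 0 were called. Their median log2 fold change was -0.20, with 6 negative and 2 positive. Hmgcs1, which makes HMG-CoA in the cytosol, had the smallest p of the step. It had 34.2, 35.3 and 39.4 CPM in the wild-type libraries and 45.7, 41.8 and 52.2 CPM in the knockout libraries, without overlap (log2 fold change 0.36 ± 0.13, edgeR adjusted p = 0.167). Ggps1, with a log2 fold change of 0.18, had 8.59, 8.71 and 9.39 CPM in the wild-type libraries and 10.4, 9.49 and 10.2 CPM in the knockout libraries, also without overlap. The thiolase Acat2 (-0.19), the kinases Mvk (-0.29) and Pmvk (-0.46), the decarboxylase Mvd (-0.16), the isomerase Idi1 (-0.22) and the farnesyl diphosphate synthase Fdps (-0.64) had negative log2 fold changes with overlapping groups. The signs of Acat2, Mvk, Mvd and Idi1 turned positive when libraries were scaled by total counts.

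Of the 3 genes that form squalene and lanosterol, 0 were called. Lss, the lanosterol synthase, had the smallest p, with 10.8, 22.6 and 21.7 CPM in the wild-type libraries and 12.6, 11.4 and 14.5 CPM in the knockout libraries (log2 fold change -0.52, edgeR adjusted p = 0.341). Wild-type replicate 1 was the lowest of the 6 libraries, and the other wild-type libraries were above every knockout library. The squalene epoxidase Sqle was the least abundant of the 28 per kilobase, at 0.422 ± 0.0484 CPM per kilobase in the wild-type group (SD, n = 3), and had its highest value, 4.03 CPM, in knockout replicate 3. The squalene synthase Fdft1 had a log2 fold change of 0.08, and 774 bases of it share coordinates with Ctsb on the other strand, so without the strand setting of the counting its reads may not be told apart from those of Ctsb. In all, 8 of the 28 genes share bases with a gene on the other strand, and the same limit holds for them. Among them Ggps1 shares 257 bases with Arid4b, Cyp51 166 with Akap9 and Npc1 967 with Rmc1.

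From lanosterol to cholesterol there were 9 genes, of which 0 were called, 7 had negative and 2 positive log2 fold changes, and the median was -0.32. Ebp, the sterol isomerase and the most abundant of the 28 per kilobase (95.2 ± 4.53 CPM per kilobase in the wild-type group; SD, n = 3), had 164, 175 and 159 CPM in the wild-type libraries and 103, 132 and 99.5 CPM in the knockout libraries. All 3 knockout libraries were below the wild-type range. Its log2 fold change was -0.57 ± 0.15 (GRCm39 chromosome X, 8051568 to 8059751, minus strand; edgeR adjusted p = 0.0916). Ebp passed the edgeR test only when knockout replicate 2 was left out (log2 fold change -0.68, adjusted p = 0.0384) and passed with DESeq2 (adjusted p = 0.00925). Knockout replicate 2 was its highest knockout library, so leaving it out widens the difference by construction. The log2 fold change of Ebp was -0.26 with total-count scaling (edgeR adjusted p = 0.22).

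Dhcr7, the enzyme that makes cholesterol from its immediate precursor, had 14.8, 39.4 and 42.5 CPM in the wild-type libraries and 19.3, 19.8 and 23.8 CPM in the knockout libraries. Wild-type replicate 1 was the lowest of all 6 and the other wild-type libraries were the highest. With all libraries the log2 fold change was -0.62 (edgeR adjusted p = 0.414), and without wild-type replicate 1 it was -0.97 (adjusted p = 0.0321). Hsd17b7, a sterol ketone reductase, had 20.9, 23.1 and 21.4 CPM in the wild-type libraries and 19.2, 19.5 and 14.5 CPM in the knockout libraries. All 3 knockout libraries were below the wild-type range, but the sign of its log2 fold change (-0.30) turned under total-count scaling. The sterol desaturase Sc5d (-0.40), the dehydrogenase Nsdhl (-0.52), the methyl oxidase Msmo1 (-0.19; 0.13 with total counts) and the reductase Tm7sf2 (-0.32) had overlapping groups. Lbr, a nuclear envelope protein with the same reductase activity as Tm7sf2, was at 0.41, and the lanosterol demethylase Cyp51 was at 0.01.

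The control genes differed among themselves. Srebf2, which encodes the factor, had 29.8, 34.5 and 36.0 CPM in the wild-type libraries and 34.3, 29.6 and 36.5 CPM in the knockout libraries, and the interval of its log2 fold change ran from -0.30 to 0.30. Scap, the escort of the factor, had 94.2, 117 and 123 CPM against 82.7, 90.4 and 73.8 CPM, with all 3 knockout libraries below the wild-type range (log2 fold change -0.44 ± 0.15, edgeR adjusted p = 0.162; -0.12 with total counts). Insig1 had 44.1, 175 and 125 CPM against 39.3, 58.4 and 75.2 CPM, with wild-type replicate 1 inside the knockout range and the other wild-type libraries above it. Its log2 fold change of -0.99 had an interval of -2.2 to 0.21 (edgeR adjusted p = 0.343), and it was -1.38 without wild-type replicate 1 (adjusted p = 0.0618).

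Wild-type replicate 1, looked at on its own, stood below wild-type replicates 2 and 3 for most of these genes. Its log2 CPM was under the mean of the other wild-type libraries for 24 of the 28, with a median difference of -0.34 where the median of all tested genes was 0.02. At least 2-fold below were 7 of the 28, beside 6.83% of all genes, and at least 2-fold above were 0, beside 7.08%. It was the lowest of the 6 libraries for 9 of the 28, beside 16.1% of all genes, and the highest for 1, beside 18.3%. Knockout replicate 1 was the lowest for nearly as many, 8 of the 28, beside 18.6% of all genes. Wild-type replicates 2 and 3 were the highest for 9 and 8 of the 28, beside 15.0% and 16.7%. These counts describe single libraries and carry no test. The low values were not particular to the 28. Srebf1, outside them, had 280 CPM in wild-type replicate 1 against 716 and 757 CPM in replicates 2 and 3. Acly had 45.7 against 116 and 140 CPM, Elovl6 19.35 against 48.5 and 46.0 CPM and Fads1 97.3 against 301 and 236 CPM. These genes were picked after their values were seen. Among the 12 further SREBP targets described below, only Me1 stood above both other wild-type libraries, with Tmem97 and Aacs between them.

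The 7 genes were Idi1, Insig1, Fdps, Dhcr7, Stard4, Msmo1 and Lss, which are named here after their values were seen. Idi1, the isopentenyl diphosphate isomerase, was 4.99-fold below, with 1.41 CPM in replicate 1 and 7.64 and 6.56 CPM in replicates 2 and 3. Insig1 was 3.35-fold below and Fdps 3.09-fold, the latter with 18.5 CPM in replicate 1 and 67.4 and 48.3 CPM in the others. Dhcr7 was 2.76-fold below, Stard4 2.2-fold, Msmo1 2.15-fold and Lss 2.05-fold. Msmo1 had 14.0 CPM in replicate 1 and 29.5 and 30.6 CPM in the others. Pmvk, at 1.93-fold below, and Nsdhl, at 1.73-fold, were the next. In contrast Srebf2 was 1.18-fold below, Hmgcs1 1.09-fold and Ebp 1.01-fold, and the 4 genes that stood above were Soat1, Npc2, Soat2 and Lbr. Against the mean of all 5 other libraries, Idi1 alone was at least 2-fold below.

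The knockout libraries did not form 1 level for these genes either. Fdps had 15.1, 18.1 and 52.7 CPM in knockout replicates 1, 2 and 3, and Idi1 had 3.25, 2.98 and 7.2 CPM. These were the 2 genes for which knockout replicate 3 stood at least 2-fold above the mean of the other knockout libraries, beside 9.38% of all genes, and that library was the highest of the 6 for 7 of the 28, beside 22.6%. The ratio of the highest to the lowest wild-type library was 5.43 for Idi1, 3.96 for Insig1 and 3.65 for Fdps, and 1.28%, 2.06% and 2.57% of the 13393 genes averaging 1 CPM or more had a wider one. Over the 28 genes the median of this ratio was 1.45 in the wild-type and 1.35 in the knockout libraries, and over those 13393 genes it was 1.31 and 1.36. Knockout replicates 1 and 2 were closer on the log2 scale to wild-type replicate 1 than to either of the other wild-type libraries for Fdps, Insig1, Dhcr7, Lss and Stard4. That was not so for Idi1 in knockout replicate 1 or for Msmo1 in knockout replicate 2. Among these genes, knockout replicate 3 was closest to wild-type replicate 1 only for Dhcr7 and Lss. The genes compared were picked for their low values in wild-type replicate 1.

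**Figure D4:**
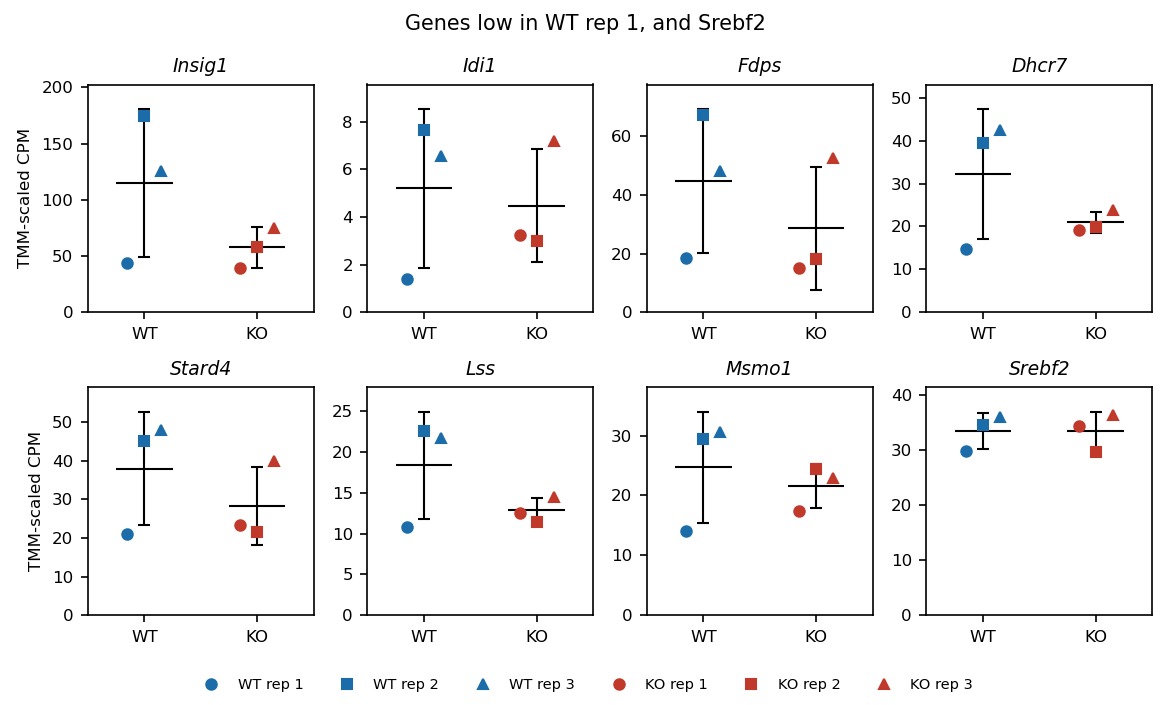
Points are the TMM-scaled CPM of each library (circle, replicate 1; square, replicate 2; triangle, replicate 3) for the 7 genes at least 2-fold low in wild-type replicate 1 and for Srebf2, and bars are the mean and SD of the 3 libraries of a group. The wild-type circle lies far below the other wild-type points in the 7 genes, and the Srebf2 values lie between 29.6 and 36.5 CPM in all 6 libraries.

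Other measures of wild-type replicate 1 were mixed. Its total count, 57886524, was the lowest but close to the 60166310 of wild-type replicate 2. Its 6.83% of all genes at least 2-fold below compares with 5.79% and 6.04% for wild-type replicates 2 and 3. It had the lowest summed level of the hepatocyte markers, 53532 CPM against 59486 and 64412 CPM, a sum of which Alb is the largest part. Single hepatocyte markers differed in both directions in this library. Tat had 359 CPM there against 1081 and 1525 CPM in wild-type replicates 2 and 3, and Cps1 had 1451 against 3451 and 3427 CPM. Pck1 and Ass1 were also at least 2-fold low, at 764 against 1608 and 1849 CPM and at 830 against 1935 and 1794 CPM. Cyp2e1, Fabp1 and Ttr were higher there than in the other wild-type libraries. Its recruited macrophage markers summed to 257 CPM, against 132 and 129 CPM in wild-type replicates 2 and 3, and its Kupffer cell markers to 782 CPM, against 440 and 487 CPM. The part of these differences in the low levels of the sterol genes was not tested. Without this library 2 of the 28 genes were called by edgeR, Soat1 on the higher and Dhcr7 on the lower side, beside 2.07% of all genes. The median log2 fold change of the 28 was then -0.36, with 21 negative, while that of all genes was -0.01. Wild-type replicate 1 lay below the mean of wild-type replicates 2 and 3 for 24 of the 28. Leaving it out therefore lowers the fold changes of those genes, Dhcr7 included, by construction. In the same way it raises that of Soat1, whose highest wild-type value was in this library. With each of the other libraries left out in turn, the median of the 28 ran from -0.25 to -0.08. Without knockout replicate 2 the calls were Soat1 and Ebp, beside 4.96%, and without each of the other 4 libraries none of the 28 was called. Total-count scaling called Soat1 and Npc2, beside 5.73% of all genes, and the fit without a low-count filter called Soat1, beside 1.70%.

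Windows just before the transcription start of these genes were read because 7 of the genes were low together in wild-type replicate 1. The 7 were picked against the other wild-type libraries. Against the mean of all 5 other libraries, only Idi1 reached the same fold threshold. Knockout replicate 1 was lower still than wild-type replicate 1 for Fdps and Insig1, and higher for the rest of the 7. SREBP binds sterol regulatory elements and is known to need the neighbouring factors NF-Y, which binds CCAAT, and Sp1, which binds GC boxes. RefSeq promoter windows (build GRCm38.p6, used for sequence only) were found for 22 of the 28 genes, and the 250 bases before each start were searched on both strands. Of the 7 low genes, Fdps and Stard4 had no window. ATTGG, the inverted CCAAT, was present for 20 of the 22, while 40.1% of the 11752 tested genes with a window held it. The 20 include every one of the 7 that had a window. They also include all others with a window except Acat2 and Scap, so Ebp and Srebf2 are among them. GGGCGG was present for 19 of the 22, against 59.4%, and CACGTG for 5, against 9.40%. TCACNCCAC, a core of the sterol regulatory element, was present for 1, Hmgcs1, against 1.31%. A match describes letters and is not a measured site, and a missing match says only that these letters are not in this window. Whether SREBP or these motifs had a part in the low values of wild-type replicate 1 was not tested.

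Shown are Hmgcs1, the gene with the sterol element core, which hardly differed in wild-type replicate 1, and Insig1, Idi1 and Msmo1, which were at least 2-fold low there. Each is the 250 bases before the RefSeq start on the gene's strand, with ATTGG or CCAAT and the sterol element core in capitals. The windows are chr13:119690101-119690350, plus strand (Hmgcs1), chr5:28071162-28071411, plus strand (Insig1), chr13:8885356-8885605, plus strand (Idi1) and chr8:64733579-64733828, minus strand (Msmo1). The core in Hmgcs1 begins 137 bases before the start, between copies of ATTGG.
Hmgcs1: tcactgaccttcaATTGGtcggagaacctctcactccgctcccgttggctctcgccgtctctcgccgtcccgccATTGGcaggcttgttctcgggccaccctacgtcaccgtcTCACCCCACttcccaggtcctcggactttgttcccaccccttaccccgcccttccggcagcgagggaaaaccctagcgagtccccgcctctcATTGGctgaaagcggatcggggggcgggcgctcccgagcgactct
Insig1: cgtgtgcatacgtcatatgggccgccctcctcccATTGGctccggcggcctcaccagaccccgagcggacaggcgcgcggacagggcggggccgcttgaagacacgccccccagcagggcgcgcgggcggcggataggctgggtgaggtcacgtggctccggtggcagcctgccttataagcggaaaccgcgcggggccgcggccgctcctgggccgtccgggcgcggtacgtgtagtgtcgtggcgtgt
Idi1: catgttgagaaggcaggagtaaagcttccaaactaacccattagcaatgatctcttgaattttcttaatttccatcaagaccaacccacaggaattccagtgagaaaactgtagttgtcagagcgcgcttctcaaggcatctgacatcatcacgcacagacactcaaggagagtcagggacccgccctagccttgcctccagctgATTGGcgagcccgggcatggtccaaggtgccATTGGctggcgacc
Msmo1: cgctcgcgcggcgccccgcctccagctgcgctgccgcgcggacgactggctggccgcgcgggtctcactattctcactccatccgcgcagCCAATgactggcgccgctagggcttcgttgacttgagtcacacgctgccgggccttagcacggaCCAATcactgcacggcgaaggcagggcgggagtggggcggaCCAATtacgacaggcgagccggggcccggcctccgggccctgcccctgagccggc
The matches in Msmo1 read CCAAT on the gene's strand and those in the other 3 genes read ATTGG. Hmgcs1 and Msmo1 each hold 3 such matches, Idi1 holds 2 and Insig1 holds 1.

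Genes of the pathway outside the 28 were taken from 5 lists, 56 different genes in all, chosen with earlier results of these data known. None was called by edgeR, beside 1.44% of all genes, and 17 were at an unadjusted p under 0.05, beside 19.7%. DESeq2 called 10 of the 56, beside 10.6%. Of the 56 log2 fold changes 37 were negative and 19 positive, beside 52.0% negative over all genes. Among 12 genes of SREBP processing and sterol-regulated degradation, the 2 with the smallest p were Spring1, a Golgi protein needed for SREBP activation, at -0.67 (edgeR adjusted p = 0.0647), and the ubiquitin ligase Rnf145 at 0.68 (adjusted p = 0.116). Srebf1, whose product drives fatty acid synthesis and responds to insulin, is added here after its values were seen. It had 280, 716 and 757 CPM in wild-type replicates 1, 2 and 3. In the knockout libraries it ran from 208 to 367 CPM, with overlap, at -1.06 (edgeR adjusted p = 0.185). Without wild-type replicate 1 edgeR called Srebf1 lower, along with the citrate lyase Acly and the sterol transfer protein Gramd1c, 3 of the 56, beside 2.07% of all genes. All 3 had their lowest wild-type value in that library, so leaving it out lowers their fold changes by construction.

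The 8 lipoprotein uptake genes had 6 negative and 2 positive log2 fold changes, a median of -0.35 and 7 at an unadjusted p under 0.05, where 52.0% of all genes were negative and 19.7% were at such a p. Mylip, a ubiquitin ligase that degrades lipoprotein receptors and an LXR target, had 5.61 ± 0.0358 CPM in the wild-type and 10.04 ± 1.82 CPM in the knockout libraries (SD, n = 3 each), which is 0.84 on the log2 scale (edgeR adjusted p = 0.0605). In the 13 genes of endolysosomal and contact-site transport the 2 with the smallest p were Gramd1c at -0.72 (adjusted p = 0.0675) and Lipa, the lysosomal lipase that frees cholesterol from its esters, at 0.39 (adjusted p = 0.167). Of 12 further SREBP targets, Lpin1, a phosphatidate phosphatase, was at 1.33 (adjusted p = 0.108) and Pcyt2, an enzyme of phosphatidylethanolamine synthesis, at -0.43 (adjusted p = 0.238). The 12 genes of nonsterol isoprenoid use had a median of -0.04, with Rabggta, a subunit of a protein prenyltransferase, at -0.30 (adjusted p = 0.175) and Dhdds, of dolichol synthesis, at -0.13 (adjusted p = 0.558).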

How the data were processed

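Poly(A) RNA of mouse liver was sequenced in 6 dUTP-marked libraries, per the labels' protocols. The deposited values are raw whole-number counts per gene, 1 column per library. The submitters' processing notes name GRCm39 and edgeR, while the aligner, the counting program, the annotation and the use of strand are not given in the sources used here. Columns matched the sample titles, which gave group and replicate number.

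Genes passing filterByExpr (17606 of 30029) were scaled by TMM and compared with edgeR's quasi-likelihood test, robust (edgeR 4.0.16, limma 3.58.1, DESeq2 1.42.0, R 4.3.3). The p-values were adjusted by Benjamini-Hochberg over all tested genes, and SE was taken from the F statistic. Lengths are of the longest GENCODE vM21 transcript. On simulated counts of this comparison (17092 genes) the test recovered 2 of 50 genes changed 1.5-fold, 15 of 50 at 2-fold, 40 of 50 at 4-fold and 47 of 50 at 8-fold. Single-library differences used log2 CPM with a prior count of 1.

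The 28 genes, the lists and the alternatives were chosen with earlier results of these data known. Values are given in every library for genes called in any edgeR fit with all libraries or without 1, genes whose groups do not overlap and the smallest p of each step. From each other list the 2 smallest p are named, except where a result is not reported here.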

Additional observations from a re-analysis of the deposited data

How the results depend on the processing

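No call among the 28 genes held under every setting. The number called was 0 with DESeq2 size factors, a filter of 10 counts in 3 libraries, limma voom, the replicate block and a 2-fold threshold, 2 with total counts, 1 without a low-count filter, 2 with DESeq2, 2 at an adjusted p under 0.1 and 0 to 2 with 1 library left out. All genes called were 1008 with total counts, 473 without a filter, 1867 with DESeq2, 71 with limma voom, 4 with the replicate block, 1169 at an adjusted p under 0.1 and 0 (without wild-type replicate 2, 2424 at an unadjusted p under 0.05) to 912 (without knockout replicate 2) with 1 library left out. Of the 56 other genes 4, 10 and 4 were called with total counts, with DESeq2 and at an adjusted p under 0.1, and 0 to 3 with 1 library left out. With total-count scaling the median log2 fold change was 0.31 over all genes (-0.02 with TMM) and 0.13 over the 28 (-0.20 with TMM). The median of the 28 less that of all genes was -0.19 with TMM and -0.18 with total counts. Against the mean of all 5 other libraries, 1 of the 28 genes and 1357 of all 17606 tested were at least 2-fold below in wild-type replicate 1.

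Of 364 values of single genes, 332 kept their direction and side of the threshold, 9 newly passed it and 23 turned sign, in 11 genes that were called under no setting; 17 genes kept 1 sign. With total counts the turned log2 fold changes were 0.12 (Acat2), 0.058 (Mvk), 0.16 (Mvd), 0.17 (Idi1), 0.13 (Msmo1), 0.019 (Hsd17b7) and 0.25 (Soat2), and with limma voom 0.0017 (Idi1) and -7.46e-04 (Srebf2). With 1 library left out values ran from -0.36 to 0.25 (Mvd), -0.74 to 0.16 (Idi1), -0.11 to 0.26 (Fdft1), -0.26 to 0.24 (Cyp51), -0.077 to 0.11 (Srebf2), -0.086 to 0.081 (Npc1) and -0.13 to 0.012 (Soat2). Total-count scaling omits the TMM factors, which were 0.886 to 0.899 in the wild-type and 0.994 to 1.25 in the knockout libraries. Omitting them raises log2 fold changes across all genes, whose median went from -0.02 to 0.31. The cause of the turns under other settings was not tested. Replicate numbers did not pair the libraries: deviations of same-numbered libraries correlated at 0.00148, -0.0152 and -0.0443. With 3 libraries a group, few 1.5-fold changes can be detected.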
